A study of Mus musculus with 23 samples.

Results

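The genes described here fold, modify and move proteins in the endoplasmic reticulum (ER). The 35 genes were chosen by name and cover the entry channel of the ER, its chaperones and disulfide enzymes, ER-associated degradation and the sensors of ER stress. Of the 35 genes, 33 were among the 18217 mouse genes that the array's probes could be matched to, and all 33 were tested, as their probes were well above background in all 22 samples. Pdia3 and Dnajb11 were not analysed here because no probe was matched to them.

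Proteins that are secreted or sit in membranes enter the ER through the Sec61 channel, lose their signal peptide, and are folded by chaperones such as BiP, the product of Hspa5. Proteins that fail to fold are drawn back to the cytosol and degraded. When unfolded protein builds up, the sensors IRE1, PERK and ATF6 raise the transcription of chaperones and degradation genes and slow translation, a response that plasma cells use to secrete antibody, in part through the transcription factor Xbp1.

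RNA was measured on one-colour Agilent arrays in 9 B cell lymphoma lines (10 arrays), 6 tumour-free Atm knockout spleens (KO spleens) and 7 Atm wild-type spleens (WT spleens). The lines were derived from tumour-bearing spleens of Atm knockout mice, and all mice, the wild-type ones included, also carried, by the labels, a Cd3e knockout on a mixed C57BL/6 x 129 background. Atm encodes a kinase of the DNA damage response, and Cd3e a subunit of the complex that signals for the T cell receptor. The lines were grown in suspension in RPMI1640 with fetal bovine serum, whereas the spleens were whole tissue, so culture and lymphoma cannot be told apart. All 6 KO spleens were female, the WT spleens were 4 male and 3 female, and the sex of the lines and the ages of the mice are not given in the sources used here. One title marks an array as a repeat, and both arrays of that line, number 8, were averaged.

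Levels are log2 of the processed spot intensity over the 75th percentile of the array, so that 0 stands for that percentile, and levels of different genes are not compared because each has its own probe. The share of spots well above background was 54.9% to 62.3% on the arrays of the lines, 62.6% to 67.7% in KO spleens and 61.7% to 66.9% in WT spleens. Atm itself had a level of -4.38 to -2.77 in the lines and -2.69 to -2.07 in KO spleens, against -0.67 to 0.00 in WT spleens, and where its probe lies relative to the deletion is not given in the sources used here. Cd3e, labelled as knocked out in all mice, had a level of -3.30 to -1.22 in the lines, -4.65 to -3.86 in KO spleens and -4.63 to -3.96 in WT spleens, well above background in all 22 samples and 3.66-fold higher in the lines than in KO spleens, and its probe's place relative to the deletion is not given either. Nothing in the labels says whether lines or spleens were handled as separate cultures or litters, so p-values measure the spread between these samples. Markers of macrophages, neutrophils and erythroid cells, which a spleen holds, were nearly all lower in the lines. All 14 macrophage and all 12 neutrophil markers tested and 9 of 10 erythroid markers were called lower there than in KO spleens. In whole spleens, fewer cells of a type and less RNA per cell cannot be told apart.

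The ER genes were higher in the lymphoma lines than in KO spleens as a group. A difference was called where the limma p, after Benjamini-Hochberg adjustment across the 13742 genes tested, was under 0.05. By that rule 28 of the 33 genes were higher in the lines and 1, Dnajb9, was lower, while Pdia4, Herpud1, Eif2ak3 and Calr were not called. The same rule called 41.6% of all genes higher and 28.9% lower in this comparison. The 33 genes had a median log2 difference of 1.38, against 0.18 for all genes, and 29 of the 33 lay above 0.18. At least a 2-fold increase was called for 22 of the 33 genes, as for 17.9% of all genes. In 24 genes every line was above every KO spleen, as in 24.1% of all genes.

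Against WT spleens 29 genes were higher in the lines and 1 was lower, with 40.4% of all genes called higher and 30.8% lower. The median log2 difference was 1.48 over the 33 genes and 0.14 over all genes. The extra call was Eif2ak3. Both comparisons use the same lines, so they are not independent.

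How far the calls depend on scaling differed by gene. Centring each array on its median raised the median difference of all genes to 0.77 against KO spleens and 0.71 against WT spleens, a shift that is the same for every gene. Under quantile normalisation the ER genes' median lay 0.85 and 0.96 above that of all genes, against 1.20 and 1.34 with the main scaling. The direction of Herpud1 turned with the scaling, and the calls of Hspa5 and Hsp90b1 were lost under quantile normalisation, as given with each gene.

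**Figure D1:**
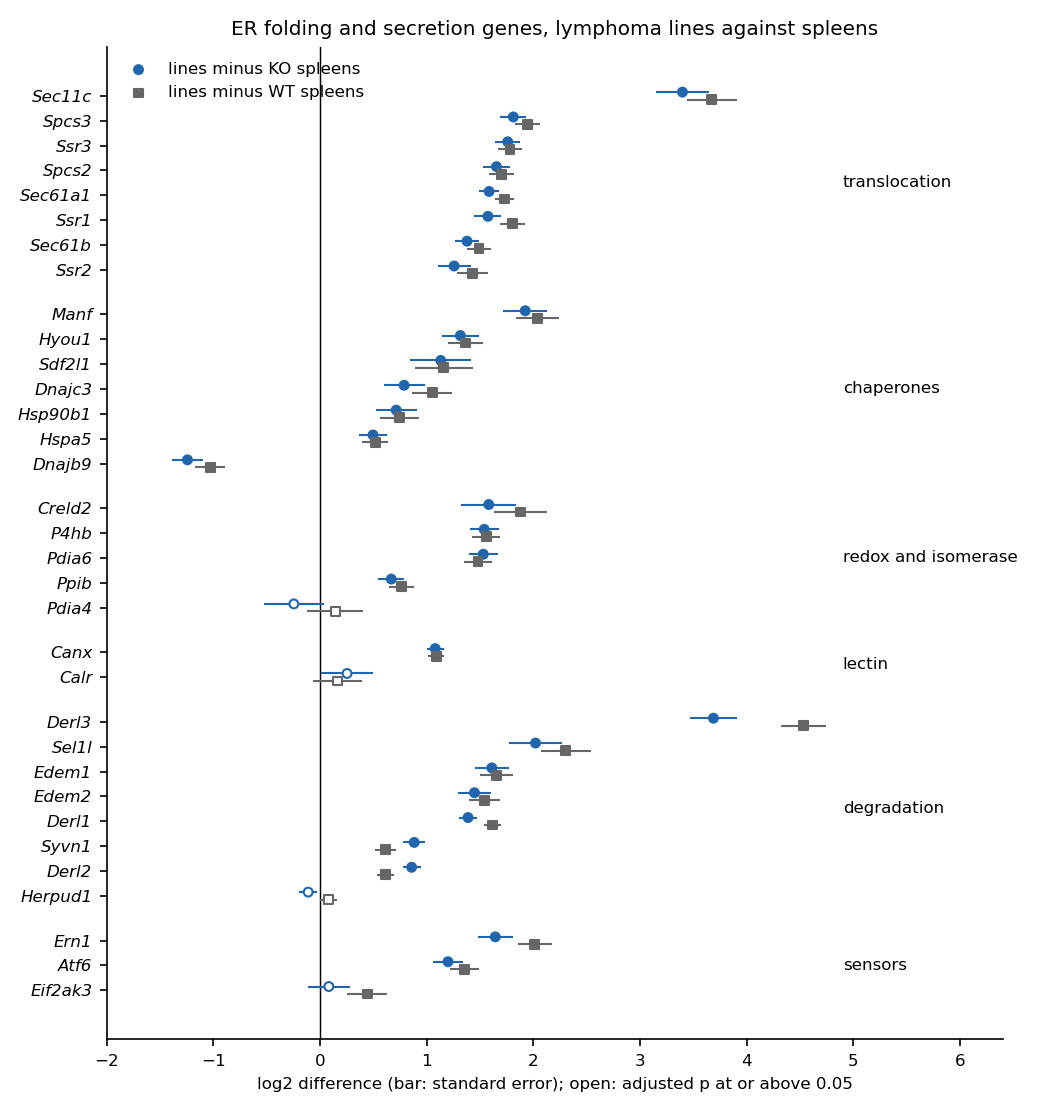
Log2 difference of each of the 33 genes between the 9 lymphoma lines and the 6 KO spleens (blue circles) or the 7 WT spleens (grey squares), grouped by role, with standard errors as bars. All 8 translocation genes lie above 1, the chaperones and sensors are spread more widely, and Dnajb9 is the only gene called lower; the calls of Hspa5 and Hsp90b1 were lost under quantile normalisation.

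Many ER genes carry in their promoters the ER stress response element (ERSE), to which ATF6 binds together with the factor NF-Y. The element is CCAAT followed by CCACG with any 9 bases between them, and was searched on both strands of windows of 300 bases, 250 before to 50 after the start site, in the RefSeq promoters of build GRCm38.p6. Of the 35 genes 27 had such a window, and 9 of these held the element, or 33.3%, against 0.137% of the 27025 genes with a window. The genes were chosen by name and not by a search for the element. As many ER genes are already known to carry it, a higher share was likely from the start. The share is thus not independent support. Each element of those 9 genes is read along its own strand, with the fixed bases in capitals.
Calr, chr8:84847075-84847093, + strand: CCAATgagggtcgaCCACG
Canx, chr11:50325800-50325818, - strand: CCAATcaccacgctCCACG
Creld2, chr15:88819520-88819538, - strand: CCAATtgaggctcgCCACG
Derl3, chr10:75893242-75893260, - strand: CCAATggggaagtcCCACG
Dnajc3, chr14:118937827-118937845, + strand: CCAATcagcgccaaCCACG
Hsp90b1, chr10:86705533-86705551, + strand: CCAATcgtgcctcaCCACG
Hsp90b1, chr10:86705638-86705656, - strand: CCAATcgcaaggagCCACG
Hspa5, chr2:34772025-34772043, + strand: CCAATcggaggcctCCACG
Pdia6, chr12:17266491-17266509, + strand: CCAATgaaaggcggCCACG
Syvn1, chr19:6046532-6046550, + strand: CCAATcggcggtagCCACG

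The 9 genes that held an ERSE had a median log2 difference of 0.88 between the lines and KO spleens, and the 16 tested genes with a window but no ERSE had 1.41. The carriers ran from Calr at 0.25 to Derl3 at 3.69. A second element of the response, ERSE-II, which is ATTGG followed by CCACG with any 1 base between them, was found in Herpud1 and Dnajb11, against 0.0444% of all genes, and TGACGTG, the core of an element that XBP1 binds, in Hspa5 alone of the 27 genes, against 2.22% of all genes. CCACG alone, which is part of both ERSE forms, was in 24 of the 27 windows and in 35.5% of all. A match is a stretch of letters and not a measured binding site. The 250 bases before the start site are given below for the gene with the highest difference (Derl3), the main ER chaperone (Hspa5) and a gene whose difference was near 0 (Herpud1), with the ERSE or ERSE-II in capitals.
Derl3, chr10:75893148-75893397, + strand: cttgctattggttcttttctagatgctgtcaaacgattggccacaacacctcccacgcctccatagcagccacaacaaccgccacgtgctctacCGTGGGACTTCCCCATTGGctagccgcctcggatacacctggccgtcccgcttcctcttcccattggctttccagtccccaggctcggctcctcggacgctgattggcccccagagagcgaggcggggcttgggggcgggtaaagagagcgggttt
Hspa5, chr2:34771840-34772089, + strand: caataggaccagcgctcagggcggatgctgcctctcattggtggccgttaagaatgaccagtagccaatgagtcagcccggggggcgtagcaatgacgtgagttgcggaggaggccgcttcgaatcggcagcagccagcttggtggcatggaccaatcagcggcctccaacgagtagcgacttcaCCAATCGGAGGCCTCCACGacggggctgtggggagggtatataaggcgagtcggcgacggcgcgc
Herpud1, chr8:94386179-94386428, + strand: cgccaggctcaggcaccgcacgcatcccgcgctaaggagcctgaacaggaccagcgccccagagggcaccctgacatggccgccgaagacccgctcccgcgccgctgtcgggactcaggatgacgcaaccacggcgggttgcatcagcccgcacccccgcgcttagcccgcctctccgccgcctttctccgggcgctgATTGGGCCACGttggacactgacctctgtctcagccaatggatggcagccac
The ERSE of Derl3 reads on the strand opposite to the gene and ends 137 bases before its start site, and that of Hspa5 reads along the gene and ends 46 bases before it.

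All 8 genes of the entry channel and signal peptidase were higher in the lines than in both groups of spleens, each at least 2-fold and with no overlap between lines and spleens. Against WT spleens 19.2% of all genes were at least 2-fold higher and 23.9% did not overlap. Sec11c, a catalytic subunit of signal peptidase, moved most. It had levels of 4.38 to 6.60 in the lines (median 5.22), 1.76 to 2.07 in KO spleens (median 1.82) and 1.42 to 1.82 in WT spleens (median 1.54). The lowest line was thus well above the highest spleen. The log2 difference was 3.40 ± 0.25 (SE) from KO spleens, or 10.5-fold (adjusted p = 7.08e-11), and 3.67 ± 0.24 from WT spleens (adjusted p = 7.33e-12).

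The other signal peptidase subunits rose less. Spcs3 had levels of 4.16 to 5.12 in the lines (median 4.54), 2.66 to 2.84 in KO spleens (median 2.77) and 2.53 to 2.91 in WT spleens (median 2.62), a difference of 1.81 ± 0.12 from KO spleens (adjusted p = 2.09e-11). Spcs2 had levels of 5.31 to 6.08 in the lines (median 5.78), 3.86 to 4.34 in KO spleens (median 4.04) and 3.79 to 4.17 in WT spleens (median 4.00), a difference of 1.65 ± 0.13 (adjusted p = 1.67e-10). Both subunits separated the lines from every spleen.

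Sec61a1, which forms the pore of the channel, had levels of 6.00 to 6.75 in the lines (median 6.43), 4.80 to 4.94 in KO spleens (median 4.87) and 4.62 to 4.78 in WT spleens (median 4.73). All 3 groups were apart from each other, although the step between the genotypes was small and is taken up below. The lines were 3.00-fold above KO spleens, with a log2 difference of 1.58 ± 0.10 (adjusted p = 2.99e-12). Sec61b, the small subunit of the channel, differed by 1.38 ± 0.11.

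The translocon-associated proteins, which help some signal peptides engage the channel, gave differences of 1.76 for Ssr3, 1.57 for Ssr1 and 1.26 for Ssr2. Ssr3 had levels of 4.14 to 5.12 in the lines (median 4.59), 2.66 to 2.95 in KO spleens (median 2.84) and 2.72 to 2.96 in WT spleens (median 2.79). Ssr2 had levels of 3.29 to 4.53 in the lines (median 3.70), 2.53 to 2.83 in KO spleens (median 2.58) and 2.34 to 2.58 in WT spleens (median 2.43). Neither gene's lines overlapped its spleens.

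The chaperones moved less evenly: 6 of the 7 tested were higher in the lines than in KO spleens and 1 was lower. Among those that were higher only Manf and Hyou1 had no overlap. For Hyou1 the separation was marginal, with the lowest line and the highest KO spleen both at 2.15. Hspa5 encodes BiP, the main chaperone of the ER. It had levels of 5.79 to 6.81 in the lines (median 6.15), 5.63 to 5.79 in KO spleens (median 5.75) and 5.48 to 5.83 in WT spleens (median 5.76). The spleens were close together and the lowest line touched their range. Hspa5 was called 1.41-fold higher in the lines than in KO spleens, a log2 difference of 0.50 ± 0.13 (adjusted p = 0.00165), but quantile normalisation gave 0.00 and no call, and background correction by normexp gave 0.38 and no call.

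Hsp90b1, the ER form of HSP90 (GRP94), behaved alike, with levels of 5.51 to 7.0 in the lines (median 6.19), 5.27 to 5.72 in KO spleens (median 5.52) and 5.11 to 5.81 in WT spleens (median 5.53). Its lower lines overlapped the spleens. The difference from KO spleens was 0.71 ± 0.19 (adjusted p = 0.00241), and 0.23 under quantile normalisation and 0.55 under normexp, neither of them called.

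Manf, a secreted ER protein that binds BiP, had levels of 4.30 to 5.92 in the lines (median 5.12), 2.80 to 3.53 in KO spleens (median 3.06) and 2.90 to 3.23 in WT spleens (median 2.93). Every line was above every spleen, and the difference from KO spleens was 1.92 ± 0.21 (adjusted p = 4.04e-08). Hyou1, a nucleotide exchange factor for BiP, differed by 1.31, Sdf2l1, a partner of the ER J-domain proteins, by 1.13, and Dnajc3, a J-domain co-chaperone, by 0.79.

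Dnajb9, which encodes the J-domain protein ERdj4 and is a textbook target of the IRE1 branch, went the other way. Its level was 0.44 to 1.37 in the lines (median 1.01), 1.91 to 2.49 in KO spleens (median 2.28) and 1.68 to 2.41 in WT spleens (median 1.94). Every line was below every spleen, as in 16.8% of all genes against KO spleens and 17.9% against WT spleens. The difference was -1.24 ± 0.15 from KO spleens (adjusted p = 1.37e-07) and -1.03 ± 0.14 from WT spleens (adjusted p = 9.24e-07), and it stayed a lower call under each scaling and with each sample left out.

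Of the oxidoreductases and isomerases, 4 of the 5 tested were higher in the lines than in KO spleens and overlapped with no KO spleen. Creld2, an ER protein with disulfide isomerase activity, differed by 1.58, the disulfide isomerases P4hb and Pdia6 by 1.54 and 1.53, and Ppib, a prolyl isomerase, by 0.67. The call of Ppib against KO spleens was lost under quantile normalisation, with a difference of 0.16. The exception was Pdia4, a further disulfide isomerase, whose lines spread over the widest range of the 33 genes. Its level was 1.81 to 4.54 in the lines (median 2.82), 2.63 to 3.69 in KO spleens (median 3.22) and 2.40 to 3.30 in WT spleens (median 2.85), so that both groups of spleens lay inside the range of the lines. The difference from KO spleens was -0.25 ± 0.28 (adjusted p = 0.442).

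The lectin chaperones, which hold glycoproteins while they fold, split. Canx, the membrane-bound calnexin, was higher in the lines by 1.08 ± 0.08 (adjusted p = 1.06e-10) and had the smallest spread of all 33 genes among the lines. Calr, its soluble relative calreticulin, had levels of 3.17 to 5.23 in the lines (median 4.56), 3.81 to 4.29 in KO spleens (median 4.07) and 3.79 to 4.34 in WT spleens (median 4.12). Some lines were above all spleens and others below, and the difference of 0.25 ± 0.24 from KO spleens was not called (adjusted p = 0.363), though it was 0.84 and called when arrays were centred on their median.

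In ER-associated degradation 7 of 8 genes were higher in the lines than in either group of spleens, with no overlap in those 7. Derl3, a member of the derlin family that carries proteins out of the ER, had the largest difference of all 33 genes. Its level was 4.50 to 6.24 in the lines (median 5.06), 1.20 to 2.04 in KO spleens (median 1.42) and 0.41 to 0.91 in WT spleens (median 0.70). The 3 groups did not overlap. The lines were 12.9-fold above KO spleens, a log2 difference of 3.69 ± 0.22 (adjusted p = 2.28e-12), and 23.1-fold above WT spleens, a log2 difference of 4.53 ± 0.21 (adjusted p = 2.45e-14).

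The other derlins differed less, Derl1 by 1.39 ± 0.08 and Derl2 by 0.86 ± 0.09 from KO spleens. Sel1l, the adaptor of the ubiquitin ligase at the ER membrane, had levels of 0.83 to 2.83 in the lines (median 1.43), -0.82 to 0.06 in KO spleens (median -0.46) and -0.95 to -0.41 in WT spleens (median -0.74). Its lines were above all spleens by a log2 difference of 2.02 ± 0.25 from KO spleens (adjusted p = 2.33e-07). Syvn1, the ligase itself (HRD1), differed by 0.88. Its call against WT spleens, at 0.61, was lost under quantile normalisation, with a difference of 0.19 (adjusted p = 0.061).

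The mannosidase-like proteins that mark glycoproteins for degradation were also higher, Edem2 by 1.45 and Edem1 by 1.61 ± 0.16 (adjusted p = 1.09e-08). Edem1 had levels of 4.05 to 5.59 in the lines (median 4.75), 2.92 to 3.34 in KO spleens (median 3.12) and 2.82 to 3.17 in WT spleens (median 3.09), again without overlap between lines and spleens.

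Herpud1, a stress-induced scaffold of the same ligase, did not follow. It had levels of 3.86 to 4.34 in the lines (median 4.03), 4.03 to 4.34 in KO spleens (median 4.16) and 3.92 to 4.09 in WT spleens (median 3.98). The groups overlapped, and the difference of -0.11 ± 0.08 from KO spleens was not called (adjusted p = 0.234). Its sign turned with the scaling, to 0.47 under median centring against KO spleens, and to -0.35 under quantile normalisation against WT spleens, where the main value was 0.08. Median centring called Herpud1 higher against KO spleens (adjusted p = 0.00164) and against WT spleens (0.65, adjusted p = 4.21e-05). Quantile normalisation called it lower against both, at -0.55 and -0.35.

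Of the 3 sensors, Ern1 and Atf6 were higher in the lines than in KO spleens. Ern1, which encodes IRE1, had levels of -1.16 to 0.17 in the lines (median -0.58), -2.41 to -1.75 in KO spleens (median -2.15) and -2.87 to -2.26 in WT spleens (median -2.57). Every line exceeded every spleen, with a difference of 1.64 ± 0.16 from KO spleens (adjusted p = 1.22e-08). Atf6 had levels of 2.93 to 4.09 in the lines (median 3.38), 1.97 to 2.61 in KO spleens (median 2.22) and 1.84 to 2.30 in WT spleens (median 2.13). It too was apart, by 1.20 ± 0.14 (adjusted p = 1.41e-07).

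Eif2ak3, which encodes PERK, had levels of 1.62 to 2.85 in the lines (median 2.27), 1.52 to 2.66 in KO spleens (median 2.31) and 1.5 to 2.14 in WT spleens (median 1.85). The lines covered the range of the KO spleens. The difference was 0.08 ± 0.19 from KO spleens (adjusted p = 0.722) and 0.44 ± 0.19 from WT spleens (adjusted p = 0.0383), and the second call remained in 14 of the 22 fits that left out 1 sample. It was lost without line 2, 3, 7 or 8 or without WT spleen 1, 2, 6 or 7, with adjusted p of 0.0531 to 0.0836. Quantile normalisation also lost it (0.21, adjusted p = 0.297). So did leaving out the filter on dim probes, the slide as a term and the value table of the authors (adjusted p of 0.0511 to 0.0516). Against KO spleens, median centring gave 0.67 with a call (adjusted p = 0.00625).

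**Figure D2:**
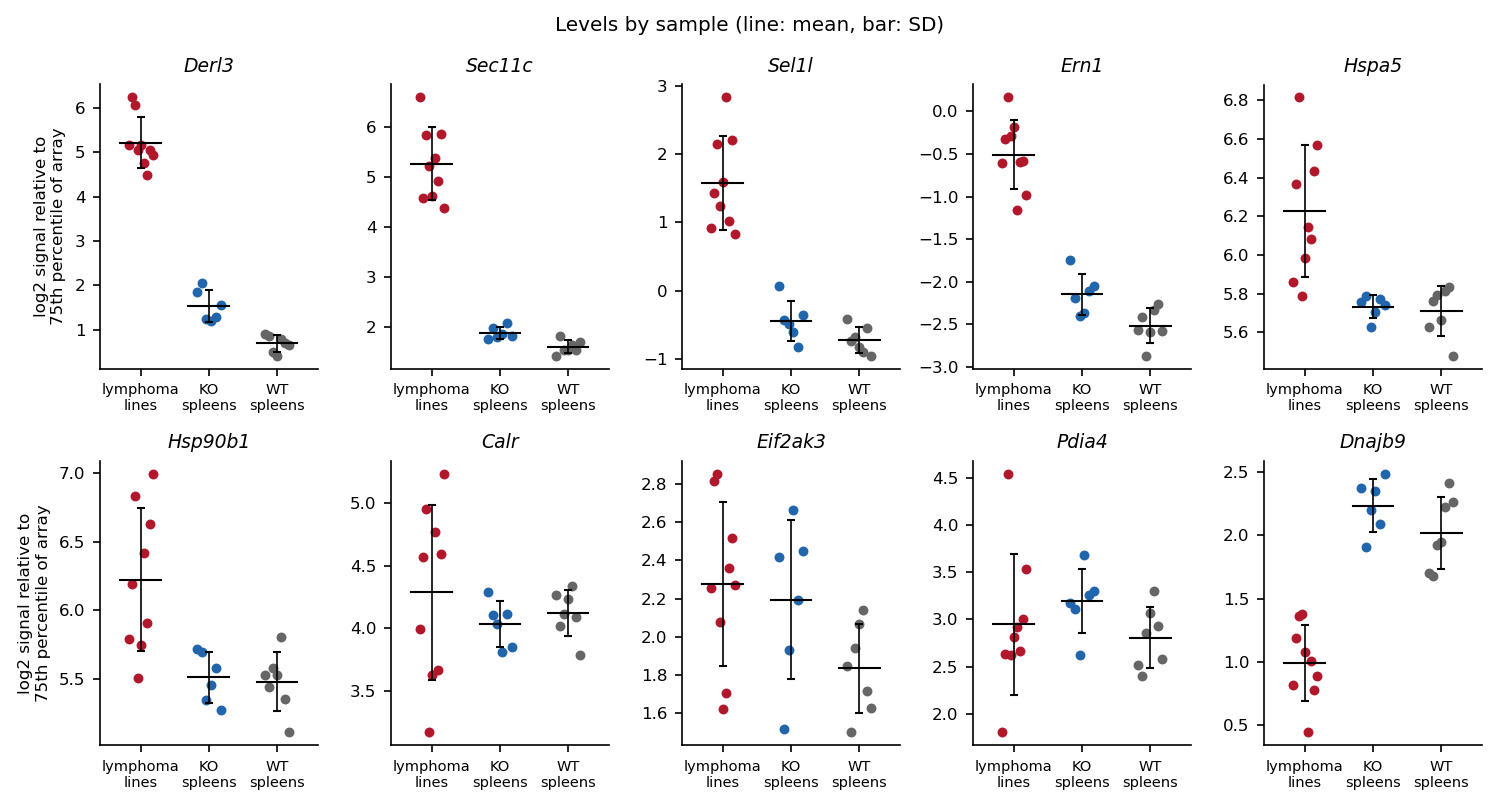
Levels of 10 of the ER genes in each of the 9 lymphoma lines, 6 KO spleens and 7 WT spleens, as log2 signal relative to the 75th percentile of the array, with the mean as a line and the SD as a bar. Derl3, Sec11c, Sel1l and Ern1 separate the lines from all spleens, Dnajb9 lies below them, and Hspa5, Hsp90b1, Calr, Eif2ak3 and Pdia4 overlap with them.

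The lines differed among themselves more than the spleens did. In all 33 genes the SD of the lines was larger than that of KO spleens, as in 85.3% of all genes, and larger than that of WT spleens, as in 87.2%. The median SD of the 33 genes was 0.35 in the lines, 0.17 in KO spleens and 0.15 in WT spleens, below the 0.44, 0.23 and 0.21 of all genes. Sdf2l1 varied most among the lines, with an SD of 0.83, followed by Creld2 at 0.76 and Pdia4 at 0.75, and Canx least, with 0.16. The 2 arrays of line 8 differed by a median of 0.28 over the genes and by up to 1.17, for Sdf2l1.

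Line 3 stood highest. It was above the median of the lines for all 33 genes and the highest of the 9 lines for 15 of them, and its level of Pdia4, 4.54, exceeded the next line's 3.53. Lines 4 and 5 were low in chaperones. They were also the only lines run on slide 5 of the 6 array slides, and the array of line 5 had the lowest 75th percentile of all, 491. The part of the slide in their levels was not tested. Line 4 was the lowest for 9 genes and line 5 for 7. Line 4 had a Calr level of 3.17, a Creld2 level of 5.28 and a Sdf2l1 level of 1.97, against medians of 4.56, 6.55 and 3.53 over the lines. Over the 7 chaperones the median deviation from the median of the lines was -0.69 in line 4, -0.60 in line 5 and 0.64 in line 3. For the 8 translocation genes the same values were -0.04, -0.06 and 0.50, so these lines were low in chaperones while near the middle in translocation genes.

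Genes of the stress response outside the set were unevenly spread over the same lines, a comparison made after their values were seen. Ddit3, which encodes the stress factor CHOP, had levels of 3.66 in line 4 and 2.84 in line 5, the highest among the lines, and -0.44 in line 9, the lowest. Trib3, a pseudokinase induced by ATF4 and CHOP, had 4.32, 3.63 and 0.60 in lines 4, 5 and 9. Chac1, a glutathione-degrading enzyme of the same pathway, had 4.04, 3.81 and 0.78. In these 3 lines, named for their Ddit3 levels, Hsp90b1 had 5.51, 5.75 and 7.0 and Calr 3.17, 3.63 and 5.23, in the opposite order. Line 3, the highest in chaperones, did not continue that order, as its Chac1 level of 3.43 was behind only those of lines 4 and 5 and its Atf4 level was 3.2, against 3.27, 3.37 and 2.91 in lines 4, 5 and 9. Plasma cell markers had their highest mean over the 16 markers in line 3, at 2.15, with 0.58 in line 4, 0.49 in line 5 and 1.99 in line 9. The part of these markers in the spread of the ER genes was not tested, nor was that of the slide that lines 4 and 5 shared.

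**Figure D3:**
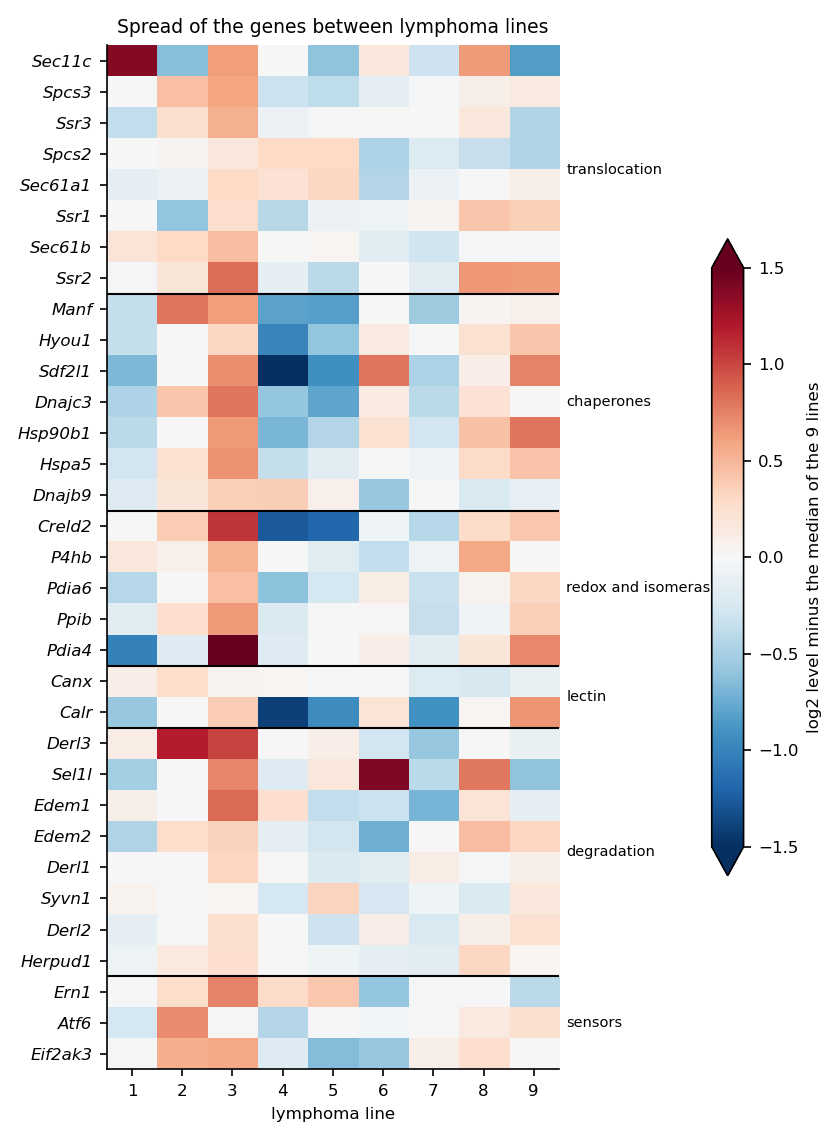
Level of each of the 33 genes in each lymphoma line minus the median of the 9 lines, in log2 units, with genes grouped by role. Line 3 is above the median for all 33 genes, and lines 4 and 5 are low mainly in the chaperones, Creld2 and Calr.

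The wider pathway was read from lists of genes outside the set. Among other translocation and signal peptidase genes 16 of 17 tested were higher in the lines than in KO spleens and 1 was lower, set beside 41.6% and 28.9% of all genes. Tram2, a relative of the translocating chain-associated protein, differed by 1.82, Sec61g, a channel subunit, by 1.66, and Srp9, of the signal recognition particle, by 1.36. The lower one, Sec62, differed by -0.41 from KO spleens but by 0.17 under median centring, where it was not called.

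In N-glycosylation 18 of 20 genes were higher and 0 lower, also at an unadjusted limma p under 0.05, led by the oligosaccharyltransferase subunits Rpn1 at 1.66, Ostc at 1.51 and Stt3a at 1.46. In transport from the ER to the Golgi 21 of 26 were higher and 1 lower. Lman1, a cargo receptor for glycoproteins, differed by 3.49, Ergic1 by 2.70, and Sec24d, a coat subunit, by 1.92. Sec24b, a related coat subunit, was the lower one at -0.34, and 0.25 without a call under median centring. These lists moved the same way as the set in most members. They were chosen for how secretion works but with earlier results of these data known, so they are not independent support.

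Other degradation genes gave 14 of 19 higher and 1 lower, with Ube2j1, a ubiquitin-conjugating enzyme of the ER, at 1.92, Selenos and Edem3 at 1.38 each, and Herpud2 at -0.62. Other chaperones and oxidoreductases gave 20 of 26 higher and 3 lower. Mzb1, a partner of Hsp90b1 in B cells, differed by 3.02, Prdx4, an ER peroxidase, by 2.61, and Erp44, a thiol-dependent retention factor, by 2.52. Fkbp14, a prolyl isomerase, exceeded KO spleens at least 4.13-fold in the lines (adjusted p = 0.0013), as it was not well above background in any KO spleen. The lower 3 were Ppic at -4.87, Pdia5 at -4.45 and Fkbp11 at -0.89, of which Ppic was well above background in 2 and Pdia5 in 4 of the 9 lines. Under median centring Fkbp11 gave -0.31 and Herpud2 -0.03 against KO spleens, neither of them called.

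Regulators and outputs of the stress response were mixed, with 9 of 16 higher and 3 lower. Xbp1, the transcription factor spliced by IRE1, was higher by 2.21 ± 0.18 (adjusted p = 2.79e-10), with levels of 2.92 to 4.57 in the lines and 1.37 to 1.83 in KO spleens. The array does not separate its spliced from its unspliced form. Trib3 was higher by 5.16, Chac1 by 3.16 and Wfs1, an ER membrane protein, by 2.82. Atf4, the factor translated when PERK is active, was higher by 0.72, and Ddit3 gave 0.57 ± 0.38 without a call (adjusted p = 0.188), or 0.84 with one when line 9 was left out (adjusted p = 0.014). Ddit3 was also called higher under median centring (1.16, adjusted p = 0.00661) and with the slide as a term (0.90, adjusted p = 0.019). The lower 3 were Bcl2l11, a pro-apoptotic target of CHOP, at -3.70, Ppp1r15a, a phosphatase subunit that ends the translational block, at -3.49, and Nfe2l2, a factor of the oxidative stress response, at -2.49.

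Of the plasma cell markers 8 of 16 were higher and 5 lower in the lines than in KO spleens, shares near the 41.6% and 28.9% of all genes, with a mean level of 0.46 to 2.15 in the lines, 1.14 to 1.54 in KO spleens and 0.75 to 0.95 in WT spleens. Of the B cell markers 6 of 14 were higher and 4 lower, again near the shares of all genes, with a mean level of 2.60 to 3.31 in the lines, 3.86 to 4.30 in KO spleens and 3.83 to 4.31 in WT spleens. Proliferation genes were higher for 14 of 15, with a mean level of 2.88 to 4.50 in the lines, 1.49 to 2.32 in KO spleens and 0.90 to 2.09 in WT spleens. The part of cell composition and of growth in the differences of the ER genes was not tested.

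**Figure D4:**
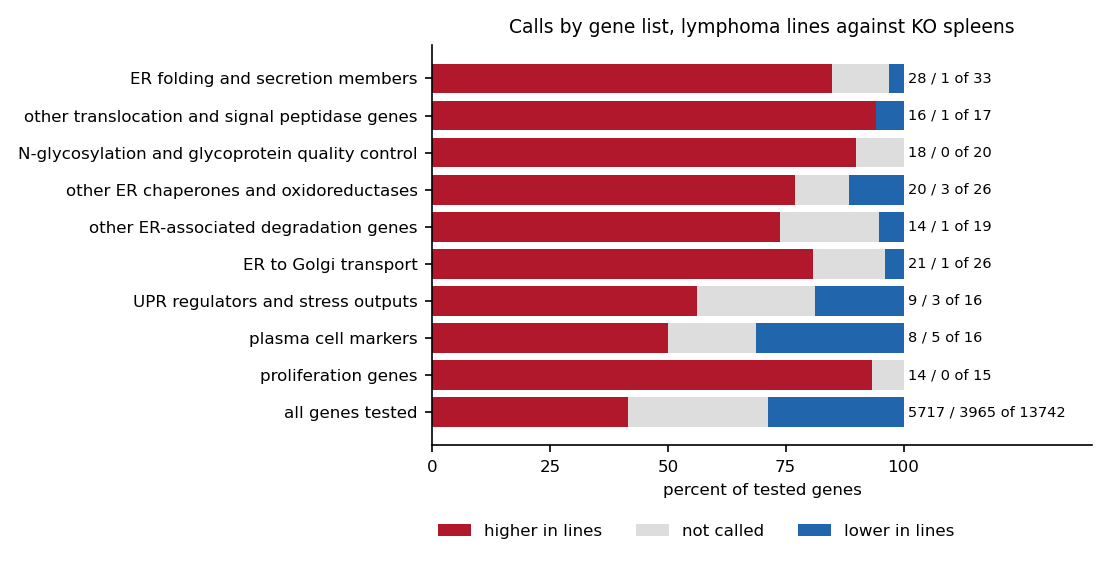
Percent of the tested genes of each list that were called higher, not called or called lower in lymphoma lines against KO spleens, with counts of higher and lower genes at the right. The 33 ER genes (28 higher, 1 lower) and the secretion lists exceed the shares over all 13742 genes (5717 higher, 3965 lower), while stress regulators and plasma cell markers are mixed.

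Between the genotypes without tumour, 1 of the 33 genes was called higher in KO spleens than in WT spleens, Derl3, and 0 were called lower, beside 1.66% and 2.16% of all genes. At an unadjusted limma p under 0.05 the counts were 7 and 1. The share of all genes at that threshold was not counted, so no excess is read from them. The fit of the genotypes used the 13 spleens with a term for sex. As all 6 KO spleens were female, each difference in it is that between the KO spleens and the 3 female WT spleens. The 4 male WT spleens add only to the estimate of the spread, while ranges of levels cover all 7 WT spleens. The 33 genes had a median log2 difference of 0.13, against -0.05 for all genes. Derl3 had levels of 1.20 to 2.04 in KO spleens and 0.41 to 0.91 in WT spleens, without overlap, and was 1.76-fold higher in KO spleens, with a log2 difference of 0.82 ± 0.19 (adjusted p = 0.0355). The call was lost under 5 other settings, with differences of 0.82 to 0.87, and in 4 of the 13 fits that left out 1 spleen, namely WT spleen 5, 6 or 7 (adjusted p = 0.109, 0.138 and 0.117) or KO spleen 1 (adjusted p = 0.0667). Among female spleens only the difference is the same by construction, 0.82, and its adjusted p was 0.0655.

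The 2 genotypes also did not overlap for Derl1 and Sec61a1, for which KO spleens lay above WT spleens by 0.27 ± 0.09 (adjusted p = 0.131) and 0.13 ± 0.07 (adjusted p = 0.31), and for Derl2, at -0.26 ± 0.08 (adjusted p = 0.0955). Groups were apart in this way for 2.26% of all genes in the higher and 2.1% in the lower direction. Derl1 and Derl3 thus lay on one side and Derl2 on the other, although only Derl3 passed the test. Between the genotypes the other tested probes of Sec61a1 gave -0.14 and 0.01. Those of Derl1 gave 0.06 to 0.27, and that of Derl2 gave -0.48. Hspa5 differed by 0.02 ± 0.09 and Hsp90b1 by 0.08 ± 0.15.

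Some markers of plasma cells and of other cell types also differed between the genotypes. Of the 16 plasma cell markers tested, 4 were higher in KO spleens and 0 lower, beside 1.66% and 2.16% of all genes, namely Jchain, which joins IgA and IgM chains, by 1.98 ± 0.17 (adjusted p = 0.000278), Tnfrsf17, the receptor BCMA, by 2.12 ± 0.23 (adjusted p = 0.00113), Prdm1, the factor BLIMP1, by 0.77, and Ell2, an elongation factor of antibody transcripts, by 0.71. Jchain had levels of 5.69 to 6.45 in KO spleens and 4.03 to 5.48 in WT spleens, and the groups did not overlap. The calls of Prdm1 and Ell2 were lost without WT spleen 6 or 7. In a fit of all 3 groups the calls of all 4 markers were lost, with differences of 1.40 for Jchain (adjusted p = 0.206), 1.51 for Tnfrsf17 (adjusted p = 0.355), 0.96 for Prdm1 and 0.52 for Ell2. With normexp Tnfrsf17 gave 1.08, Prdm1 0.38 and Ell2 0.68, none of them called, and with the slide as a term Prdm1 gave 0.84 without a call. The mean level of the list, 1.14 to 1.54 in KO spleens and 0.75 to 0.95 in WT spleens, did not overlap either. Among the other cell types 5 of 14 NK and T cell markers were lower in KO spleens, with a median difference of -0.39 over the list, and of 11 stromal and endothelial markers 2 were lower and 1 higher, with a median of -0.54. Of 15 proliferation genes 1 was higher, with a median of 0.62. The 10 erythroid and 12 neutrophil markers had medians of 1.04 and 0.93 with no call by limma, and 1 and 0 were higher at an unadjusted p under 0.05. Whether any of these cells account for the level of Derl3 was not tested. In the lines Tnfrsf17 was well above background in 2 of 9 and Jchain in all 9.

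**Figure D5:**
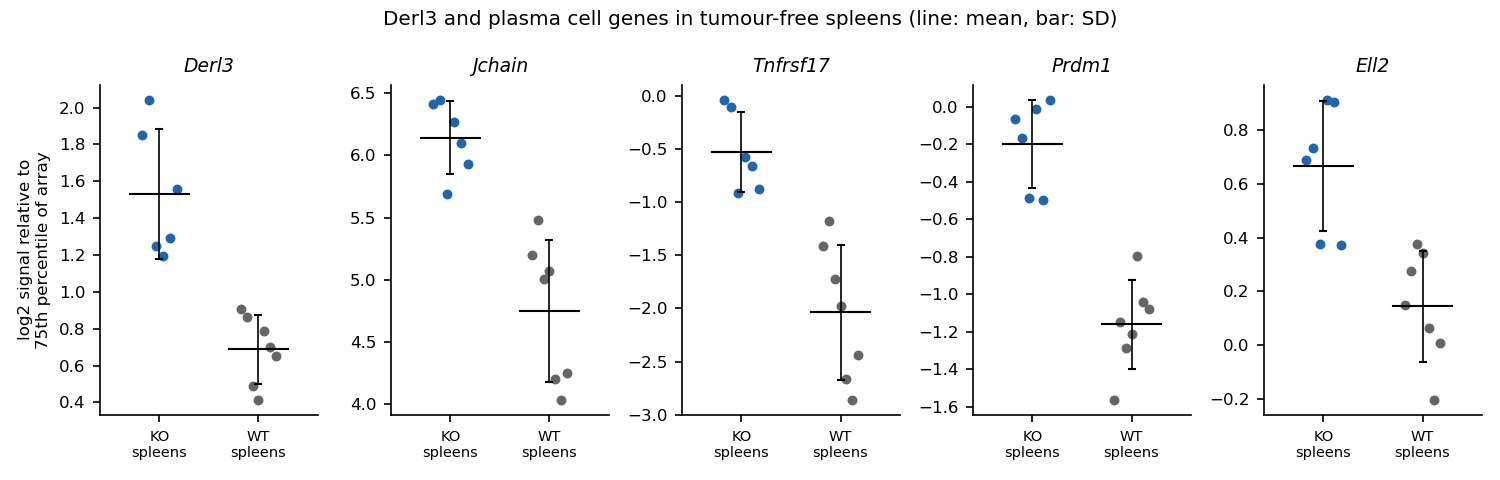
Levels of Derl3 and of the 4 plasma cell markers called higher in KO spleens, for the 6 KO and 7 WT spleens, as log2 signal relative to the 75th percentile of the array, with the mean as a line and the SD as a bar. For Derl3, Jchain, Tnfrsf17 and Prdm1 no WT spleen reaches the lowest KO spleen.

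Outside the set Chac1 was higher in KO spleens by 1.74 ± 0.32 (adjusted p = 0.0122) and Nfe2l2 by 0.46 ± 0.10 (adjusted p = 0.0285), and Alg12, a mannosyltransferase of N-glycan assembly, was lower, at -0.45 ± 0.09 (adjusted p = 0.0177). The calls of Chac1, Nfe2l2 and Alg12 were lost without WT spleen 6 or 7, and that of Nfe2l2 also without WT spleen 5 or KO spleen 1. All 3 calls were also lost with normexp (0.73, 0.72 and -0.26), with the slide as a term (1.61, 0.47 and -0.40) and in a fit of all 3 groups (1.63, 0.45 and -0.32), those of Nfe2l2 and Alg12 also under median centring (0.48 and -0.44), and that of Alg12 with the mean of all probes (-0.36). No gene of the translocation, degradation, chaperone or Golgi transport lists was called by limma between the genotypes. At an unadjusted limma p under 0.05, 9 of their 88 tested genes were higher and 2 lower. The share of all genes at that threshold was not counted.

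The arrays were run on 6 slides, of which 5 held all 3 groups and 1 held lines only. Within the 5 slides the ER genes had a median log2 difference of 1.05 to 1.79 between lines and KO spleens. Between lines and WT spleens it was 1.13 to 2.02. The medians of all genes were 0.13 to 0.26 and 0.10 to 0.22. Of the 33 genes 28 to 31 and 29 to 32 were higher in the lines. Above the median of all genes on the same slide were 25 to 31 and 26 to 32. Between the genotypes the median within slides was 0.06 to 0.20. Of the 18 genes with more than 1 tested probe, all 18 had probes of the same sign in both comparisons of the lines, and 11 had in the comparison of genotypes.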

How the data were processed

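Total RNA from the lymphoma lines and spleens was hybridised to 23 one-colour Agilent arrays. Each deposited scanner file gives the intensity of every spot after background correction by Feature Extraction 10.7.1.1 (Agilent), as its header records, and per the labels the RNA integrity number exceeded 8. A value table of log2 values was also deposited by the authors. Set against the scanner files, it matched the scaled signal centred on the median of each probe (correlation of at least 0.9996 on every array), and it served as an alternative.

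Control spots and 1556 spots marked as outliers over all arrays were left out, and spots of a probe were averaged. Intensities were divided by the 75th percentile of their array before log2 was taken, and both arrays of line 8 were averaged. Symbols came from RefSeq accessions, which 26690 of 41174 probes matched. A probe was tested if well above background in at least 6 of 22 samples, and the probe with the highest mean stood for its gene.

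Models were fitted in R 4.3.3 with limma 3.58.1 (and data.table, version 1.17.8), and figures were drawn with matplotlib 3.10.9. The comparisons with the lines came from a fit of the 3 groups, and that of the genotypes from the 13 spleens with a term for sex. Benjamini-Hochberg adjustment covered 13742 genes at a threshold of 0.05, and the procedure was tested on simulated data. Where a gene was not well above background in any sample of 1 group, the fold is a lower bound from the lowest signal well above background. The number of arrays limits the precision.

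The genes and lists were chosen with earlier results of these data known. Values by sample are given for Hspa5, Hsp90b1, Derl3 and the sensors, for the 8 largest and 6 smallest differences from KO spleens, and for genes called between the genotypes or with a sample that stood apart. Up to 3 genes per direction are named for other lists. The planned normexp correction of mean signals was run on median signals, the column used here.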

Additional observations from a re-analysis of the deposited data

Results flagged for a closer look

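In each of 33 genes and 3 groups the highest and lowest samples were set against their group by Dixon's criterion. In 5 of the 99 groups a sample lay far from the others, and chance gives about 1 in 20. All 5 were spleens. WT spleen 6 had an Edem1 level of 2.82, with the next lowest WT spleen at 3.06. WT spleen 2 had a Manf level of 3.23, with the next highest at 3.02. WT spleen 4 had a Sec61a1 level of 4.62, with the next lowest at 4.72. WT spleen 5 had a Spcs3 level of 2.91, with the next highest at 2.63. KO spleen 5 had a Ssr2 level of 2.83, with the next highest KO spleen at 2.63. No sample of the lymphoma lines was far from its group by this criterion in the 33 genes.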

How the results depend on the processing

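Alternatives changed the array scaling, background correction, filter, probe choice, slide term, data source, sex term and samples. Of the 1408 gene results recomputed under these alternatives, leave-one-out fits aside, 1348 kept their direction and side of the threshold, 41 lost the call, 14 gained one and 5 turned direction. Against KO spleens 25 to 31 ER genes were called higher and against WT spleens 25 to 32. Under quantile normalisation 2 were called lower in each comparison, Dnajb9 and Herpud1. Leaving out 1 sample gave 28 higher and 1 lower against KO spleens, and 28 to 29 higher and 1 lower against WT spleens. Between the genotypes the ER genes higher were 0 with normexp, without the filter, with the slide as a term, in female spleens and in a fit of all 3 groups. There was 1 lower gene, Derl2, with the mean of all probes. Without the sex term 2 were higher, Derl3 and Sec11c, and 1 was lower, Derl2. Leaving out 1 spleen gave 0 to 2 higher, the second being Creld2 without KO spleen 3, and 0 lower. Directions turned under median centring for Herpud1 (0.47), Sec62 (0.17) and Sec24b (0.25) against KO spleens and Sec62 (0.45) against WT spleens, and under quantile normalisation for Herpud1 against WT spleens (-0.35). The scalings themselves shift all genes; otherwise the cause was not tested.

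Over all genes, median centring gave 8440 higher and 2598 lower against KO spleens and 8274 higher and 2735 lower against WT spleens, where the main counts were 5717 and 3965, and 5557 and 4239. Normexp gave 2518 lower against KO spleens. Between the genotypes, with 228 higher and 297 lower, normexp gave 2 and 1, the slide term 146 and 111, no sex term 739 and 694 and a fit of all 3 groups 129 and 120, while median centring gave 163 and female spleens 177 lower. Normexp, run on median signals, was added after seeing the data. No paired analysis was possible because the sample titles carry no replicate numbers shared between groups, but the slide served as a block, with the values given above.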
